A study of Mus musculus with 11 samples.

Results

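The gene set described here holds 45 mouse genes of the excitatory synapse, chiefly but not only of its receiving side, out of 39017 genes in the deposited table. It was chosen by name, from the receptor subunits for glutamate, the auxiliary subunits that travel with them and the scaffold proteins beneath them. No cut-off on measured values was used, but earlier results of these data were known when it was chosen. It has 4 AMPA, 6 NMDA and 5 kainate receptor subunits, 1 delta receptor subunit, 6 metabotropic receptors, 8 auxiliary subunits of AMPA receptors, 2 of kainate receptors, and 13 scaffolds of the Dlg, Dlgap, Shank and Homer families. All 45 were found in the table by gene identifier, and all 45 passed the filter on low counts in every fit.

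The RNA came from mice aged 13 to 14 weeks, and was taken from the neocortex and from region CA1 of the hippocampus. The knockout (KO) animals were Camk2a-Cre;Dicer flox/flox, in which a Cre recombinase driven by the Camk2a promoter deletes floxed Dicer in excitatory neurons of the forebrain. The labels call the other animals control and do not give their genotype. The neocortex gave 3 KO libraries (D5130, D5132 and D5133) and 3 control libraries (D5129, D5134 and D5135), all labelled male. The CA1 gave 2 KO libraries (the males D5130 and D5133) and 3 control libraries (the males D5134 and D5135 and the female D5138). Each library is 1 animal, and 4 of the 7 animals gave both tissues. The samples are bulk tissue, in which fewer cells of a type and less RNA per cell cannot be told apart.

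Glutamate opens AMPA, NMDA and kainate receptors, which are channels, and activates metabotropic receptors, which act through G proteins. Auxiliary subunits change how long the channels stay open and carry them to the membrane, and the scaffolds tie receptors to one another and to signalling enzymes in the postsynaptic density. Dicer cuts miRNA precursors to mature miRNAs, which pair through their seed with sites in 3′ UTRs and lower the output of the mRNA, and several miRNAs are known to act on synaptic mRNAs near dendritic spines.

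Gene counts summed to between 43144097 and 58329441 reads per neocortex library and between 24806581 and 35684618 per CA1 library. The kits differed (stranded for the neocortex, unstranded for the CA1), so KO and control were compared within a tissue. Dicer1 did not pass the test in either tissue, at 59.0 to 63.3 CPM (counts scaled to a common library total with TMM factors) in KO neocortex and 59.3 to 66.5 CPM in control neocortex, but its count covers the whole gene and does not check the deleted part. The control animal D5134, labelled male, had 76.4 CPM of Y-linked genes in the neocortex, against 167 to 205 CPM in the other 5 neocortex libraries, and 79.7 CPM in the CA1, against 172 to 192 CPM in the other CA1 libraries labelled male. Counts over the set and the genes called are therefore also given without D5134, and the genes that then turned direction are named. By their ERCC spike-in RNAs, the neocortex libraries formed 2 sets (D5129, D5130 and D5132, and D5133, D5134 and D5135), each with both genotypes.

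In the neocortex, 3 of the 45 genes rose in KO and 0 fell (edgeR, adjusted p under 0.05), where 2.71% of the 16971 genes tested passed in either direction, 1.51% as higher and 1.2% as lower. Shisa6 and Shisa7, auxiliary subunits of AMPA receptors, and Grm2, a metabotropic receptor, were the 3 that rose. A log2 fold change above 0 was seen for 34 genes (75.6%, against 50.6% of all genes tested) and below 0 for 11 (24.4%, against 49.4%), with a median of 0.11 over the set, against 0.002 over all genes. At an unadjusted p under 0.05 there were 13 genes (28.9%, against 18% of all genes), and DESeq2 called 4 as higher and 0 as lower, adding Grin2c. All KO libraries lay above all controls for 12 genes (26.7%, against 11.6% of all genes) and below them for 2, Cacng3 and Cnih2 (4.44%, against 12.4%).

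In the CA1 the set leaned the other way, but not evenly by class. All 13 scaffolds and 8 of 10 auxiliary subunits had a log2 fold change below 0, against 50.1% of all genes. Of the 22 receptor subunits 13 did, with a median of -0.02, and 4 of the 5 kainate receptor subunits lay above 0. One gene rose in KO, Grm2 again, and 3 fell, namely the kainate receptor auxiliary subunit Neto2 and the scaffolds Dlg3 and Homer2 (edgeR, adjusted p under 0.05), where 3.89% of the 18274 genes tested passed, 2.47% as higher and 1.41% as lower. A log2 fold change below 0 was seen for 34 genes (75.6%, against 50.1% of all genes tested) and above 0 for 11 (24.4%, against 49.9%), with a median of -0.11, against a median that rounded to 0 over all genes. There were 16 genes at an unadjusted p under 0.05 (35.6%, against 17.3% of all genes). Both KO libraries lay below the 3 controls for 19 genes (42.2%, against 16.3% of all genes) and above them for 2, Grin2c and Grm2 (4.44%, against 17.4%).

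**Figure D1:**
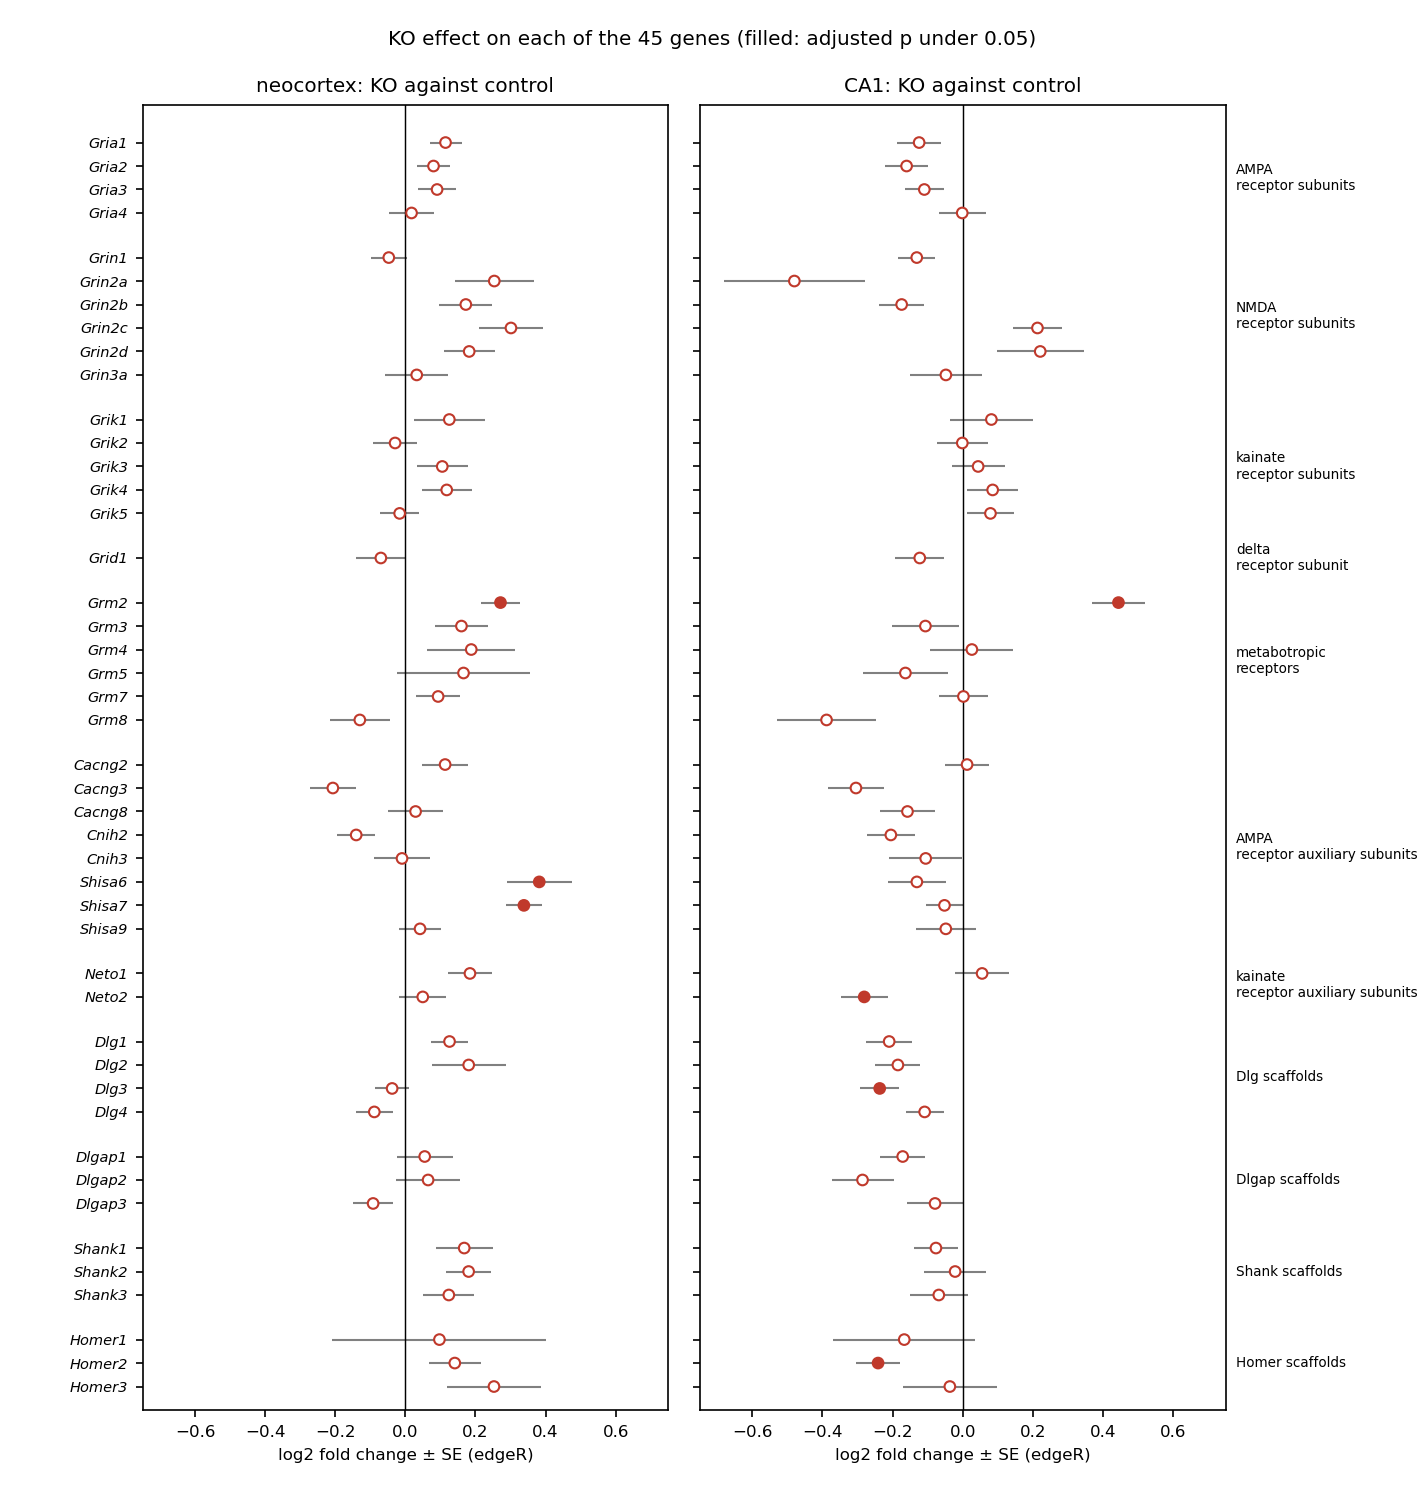
Log2 fold change of KO over control with its standard error (SE, bars; edgeR) for each of the 45 genes, by class, in the neocortex (left) and the CA1 (right); filled points passed at an adjusted p under 0.05. Most points lie right of 0 in the neocortex (34 of 45) and left of 0 in the CA1 (34 of 45), and every scaffold lies left of 0 in the CA1; without D5134 the counts were 30, 28 and 11 of 13 scaffolds.

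The size of both medians depended on single control libraries. D5134 was the lowest of the 6 neocortex libraries for 22 of the 45 genes, against 23.1% of all genes tested, and without it the median of the set in the neocortex was 0.05. D5135 was the highest of the 5 CA1 libraries for 18 of the 45 genes, against 19.9% of all genes, and without it the median in the CA1 was -0.06.

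Without D5134 fewer of the genes lay above 0 in the neocortex and fewer lay below 0 in the CA1. The same 3 genes were called in the neocortex, where 30 of the 45 were above 0 (66.7%, against 50.4% of all genes) and 15 below, and 12 were at an unadjusted p under 0.05 (26.7%, against 17.1%). In the CA1 Grm2 and Dlg3 were called, 28 genes were below 0 (62.2%, against 49.8% of all genes) and 17 above, with a median of -0.11, and 19 were at an unadjusted p under 0.05 (42.2%, against 17.2%). All KO libraries lay above the remaining controls for 14 genes in the neocortex (31.1%, against 17.5% of all genes), and below them for 23 in the CA1 (51.1%, against 23.2%). The genes whose value crossed 0, none of them called, were Gria4, Grin3a, Grik5, Grm5, Dlgap1 and Dlgap2 in the neocortex and Gria4, Grin3a, Grik2, Shisa9, Shank2 and Homer1 in the CA1.

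Within the spike-in sets of the neocortex, 31 genes were higher and 13 lower in KO in the first set (median difference in log2 CPM 0.07) and 34 higher and 11 lower in the second (0.15).

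**Figure D2:**
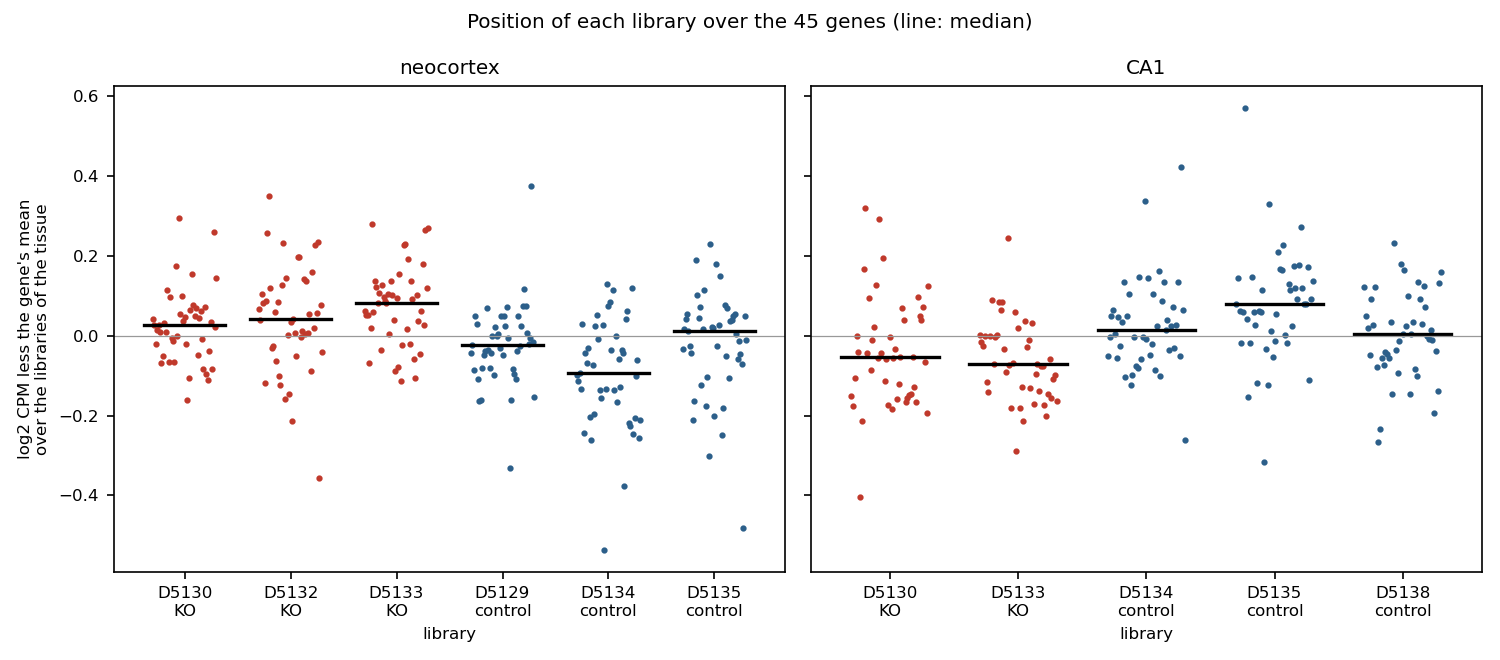
Log2 CPM of each of the 45 genes (points) in each library, less the mean of the gene over the libraries of its tissue; the line is the median over the genes. The neocortex control D5134 has the lowest median (-0.09) and the KO library D5133 the highest (0.08); in the CA1 both KO libraries lie below 0 (-0.05 and -0.07) and the control D5135 lies highest (0.08).

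To show the sequences that a loss of miRNAs could touch in the genes that passed a test, the 3′ UTRs were searched on the sense strand for 8mer seed matches, the reverse complement of miRNA bases 2 to 8 followed by an A, of 14 miRNA families of the brain; miR-124 was not searched, so a match to it is not counted below. Such a match was present in 20 of the 45 genes (44.4%), against 41.8% of 15167 tested genes with a 3′ UTR. Of the 6 genes called in a tissue, Shisa6, Neto2 and Homer2 held matches, and Shisa7, Grm2 and Dlg3 held none in the transcript searched. The mature miRNAs (RefSeq, GRCm38.p6) are shown 5′ to 3′ with the seed in capitals.
mmu-miR-128-3p: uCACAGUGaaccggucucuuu
mmu-miR-218-5p: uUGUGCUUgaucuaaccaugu
mmu-miR-30a-5p: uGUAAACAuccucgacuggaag
mmu-miR-92a-3p: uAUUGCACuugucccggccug
mmu-let-7a-5p: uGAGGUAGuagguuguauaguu
mmu-miR-19b-3p: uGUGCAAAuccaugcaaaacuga
mmu-miR-26a-5p: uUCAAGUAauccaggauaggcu

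The matched stretches of the 3′ UTRs (GENCODE M21 transcripts, GRCm38, all on the minus strand) are shown 5′ to 3′ as the mRNA strand in DNA letters, with the 8mer in capitals. In Shisa6 they lie at chr11:66216523-66216530 (CACTGTGA, miR-128) and chr11:66216933-66216940 (AAGCACAA, miR-218). In Neto2 they lie at chr8:85637899-85637906 (TGTTTACA, miR-30) and chr8:85640291-85640298 (GTGCAATA, miR-92). In Homer2 they lie at chr7:81602383-81602390 (CTACCTCA, let-7), chr7:81608769-81608776 (TTTGCACA, miR-19) and chr7:81609618-81609625 (TACTTGAA, miR-26).
Shisa6 with miR-128: agagctagggtcgggaggacCACTGTGAtg
Shisa6 with miR-218: cagagagctgctgtgtccatAAGCACAAta
Neto2 with miR-30: attgaacaaaaaccaaaggaTGTTTACAtt
Neto2 with miR-92: taacctgtaaaacaccaccaGTGCAATAgc
Homer2 with let-7: atcaggaagcatcgatcaatCTACCTCAtt
Homer2 with miR-19: ggcattcctctttaggagagTTTGCACAca
Homer2 with miR-26: ggctgtaggtcagacataccTACTTGAAag

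These letters recur across the genome. The 8mer of miR-128 was present in 5.99% of the genes searched, of miR-218 in 4.4%, of miR-30 in 8.2%, of miR-92 in 2.69%, of let-7 in 3.61%, of miR-19 in 5.78% and of miR-26 in 4.79%. Over the set, the 20 genes with a match had a median log2 fold change of 0.12 in the neocortex and the 25 without had 0.09, against 0.03 and -0.02 over all genes with and without a match. In the CA1 the medians were -0.14 with a match and -0.07 without, against -0.004 and 0.002 over all genes. A match is a run of letters in an annotated transcript, and use of the sites was not measured.

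The AMPA receptor subunits Gria1 to Gria4, which carry most fast excitatory current, did not pass the test in either tissue (edgeR; 1 of 4 at an unadjusted p under 0.05 in each tissue; DESeq2 called 0 in each). All 4 had log2 fold changes above 0 in the neocortex, between 0.02 and 0.11, where 50.6% of all genes were above 0. All 4 were below 0 in the CA1, from -0.16 to -0.001 (Gria4, in effect unchanged), where 50.1% of all genes were below 0. Without D5134, 3 of 4 were above 0 in the neocortex and 3 of 4 below 0 in the CA1, Gria4 being the exception in each. Gria2, the subunit that keeps calcium out of the channel, had 667, 673 and 679 CPM in KO neocortex, against 644, 605 and 662 CPM in control neocortex. CA1 values were 815 and 911 CPM in KO, against 919, 1019 and 954 CPM in controls. The Gria2 groups did not overlap in either tissue, with KO higher in the neocortex (log2 fold change 0.08, SE 0.048, edgeR adjusted p = 0.43) and lower in the CA1 (-0.16, SE 0.062, edgeR adjusted p = 0.188). Single libraries moved these values, which were 0.04 without D5134 in the neocortex and, in the CA1, -0.08 without the KO library D5130 and -0.25 without the KO library D5133.

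The mix of AMPA subunits was close in KO and control. Counted per kilobase of exon, Gria1 made 34.4% ± 0.386 of the AMPA subunit sum in KO neocortex and 33.7% ± 0.622 in control neocortex (SD, n = 3 each), and 64.4% ± 0.41 in KO CA1 (n = 2) and 64.3% ± 1.33 in control CA1 (n = 3). Gria2 made 28.6% in both genotypes of the neocortex, and 21.1% in KO CA1 and 21.6% in control CA1. The Gria2 share is a lower limit, because 22.7% of its exon bases lie outside the span that the deposited table gives, against 0.0662% for Gria1. The order of Gria1 and Gria2 in the neocortex thus rests on the length used. Gria4 made 15.7% ± 0.689 in KO neocortex and 16.4% ± 0.62 in control neocortex, and 4.55% ± 0.313 in KO CA1 and 4.18% ± 0.366 in control CA1. These differences between genotypes were of the order of the SD between libraries and were not tested. The larger share of Gria1 in the CA1 was measured with another kit than in the neocortex.

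**Figure D3:**
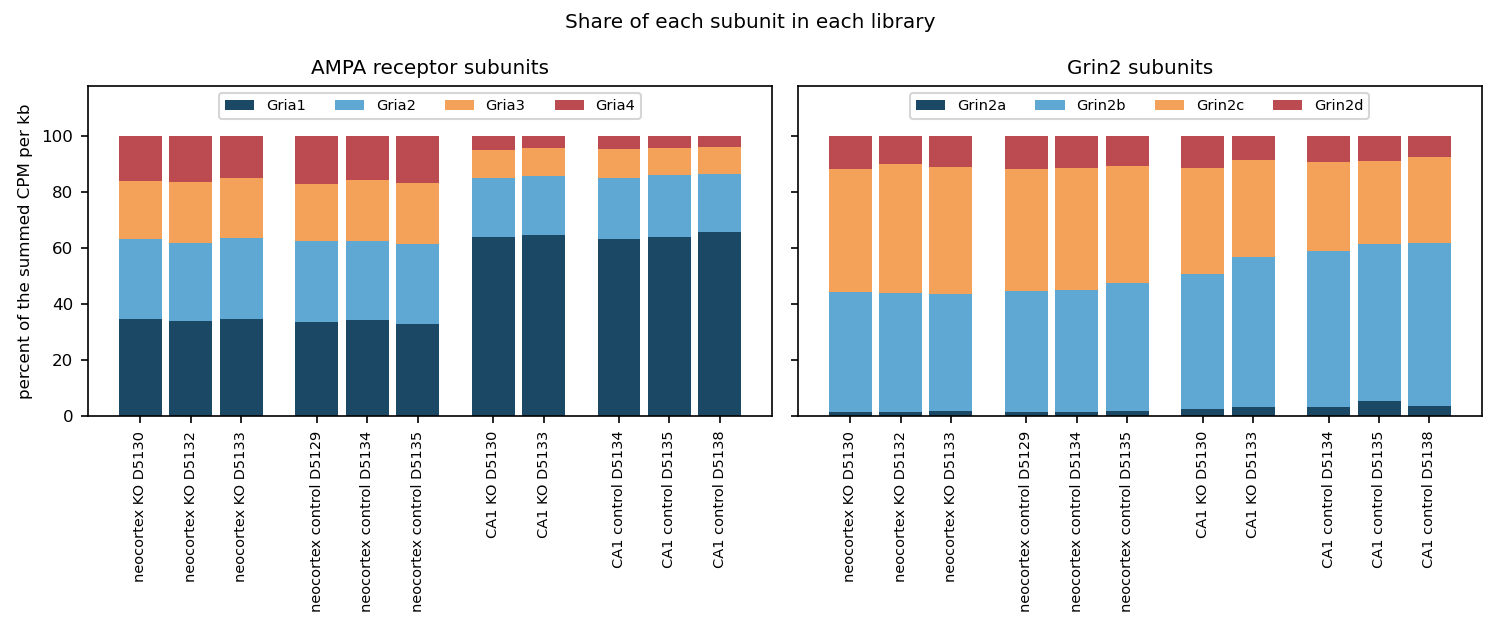
Share of each AMPA receptor subunit (left) and of each Grin2 subunit (right) in the summed CPM per kilobase of exon, 1 bar per library, KO left of control within each tissue. Gria1 takes about the same share in KO and control within a tissue. In the CA1 the Grin2b share is lower in both KO libraries (48.0% and 53.8%) than in the 3 controls (55.5% to 58.4%). The shares of Grin2a and Gria2 are lower limits, because 58.3% and 22.7% of their exon bases lie outside the spans in the deposited table. This bears on the shares of the other subunits too.

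No NMDA receptor subunit passed the edgeR test, while 4 of 6 were at an unadjusted p under 0.05 in each tissue, and DESeq2 called Grin2c as higher in the neocortex (adjusted p = 0.0242) and 0 in the CA1. Grin2c, best known from cerebellar granule cells, had 65.6, 86.7 and 74.8 CPM in KO neocortex, against 60.8, 64.8 and 58.7 CPM in control neocortex. In the CA1 it had 76.1 and 72.1 CPM in KO, against 66.7, 61.0 and 64.2 CPM in controls. KO lay above control in every library of both tissues (neocortex log2 fold change 0.30, SE 0.09, and CA1 log2 fold change 0.21, SE 0.069, each with an edgeR adjusted p of 0.111). Without the KO library D5132 the neocortex value was 0.19, and without the KO library D5130 it was 0.39 and passed (adjusted p = 0.0412).

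The other Grin2 subunits differed in direction between the tissues or among themselves. Grin2b, the subunit that predominates before birth, was at 0.17 in the neocortex (SE 0.076, edgeR adjusted p = 0.263) and at -0.17 in the CA1 (SE 0.064, adjusted p = 0.165), and in the CA1 both KO libraries (476 and 551 CPM) lay below the controls (568 to 600 CPM). Grin2d was at 0.18 in the neocortex (adjusted p = 0.213) and 0.22 in the CA1 (adjusted p = 0.395). Grin1, the subunit that every NMDA receptor needs, was at -0.05 in the neocortex (adjusted p = 0.694) and -0.13 in the CA1 (adjusted p = 0.214), and the glycine-binding Grin3a was within 0.05 of 0 in both tissues.

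The NMDA counts carry limits of annotation. Grin2a had 8.90 to 10.7 CPM in KO neocortex and 7.47 to 8.69 CPM in control neocortex, and 19.7 and 23.6 CPM in KO CA1, against 25.1 to 38.7 CPM in control CA1 (adjusted p = 0.265 and 0.289 in the edgeR fits). Its level is a lower limit, because 58.3% of its exon bases in GENCODE M21 lie outside the span that the deposited table gives for the gene. Grin1os, an antisense gene over Grin1, was counted at 243 to 275 CPM in the unstranded CA1 libraries and at 0.0987 to 0.298 CPM in the stranded neocortex libraries, so the CA1 reads of this pair cannot be told apart.

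The kainate receptor subunits, Grik1 to Grik3 of low and Grik4 and Grik5 of high affinity, stayed near their controls. None of the 5 passed in either tissue (edgeR; in each tissue 0 had an unadjusted p under 0.05, and DESeq2 called 0), with log2 fold changes between -0.03 and 0.13 in the neocortex and a highest value of 0.09 in the CA1. Grik4 had 26.8, 28.6 and 28.8 CPM in KO neocortex, against 25.5, 27.4 and 24.7 CPM in control neocortex, and 68.3 and 71.3 CPM in KO CA1, against 61.8, 70.3 and 65.1 CPM in control CA1. Its groups overlapped in both tissues (log2 fold change 0.12, SE 0.071, and 0.09, SE 0.073, edgeR adjusted p = 0.432 and 0.617), and the CA1 value was 0.04 without D5134. Grik5 made most of the kainate sum per kilobase, 68.0% in KO and 69.6% in control neocortex, and 64.9% in KO and 64.5% in control CA1.

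Grid1, the delta receptor that binds cerebellins across the synaptic cleft, had 43.9, 42.2 and 48.6 CPM in KO neocortex, against 46.0, 45.7 and 49.8 CPM in control neocortex. Its CA1 values were 56.1 and 54.8 CPM in KO, against 58.2, 63.1 and 59.7 CPM in controls. The neocortex groups overlapped and the CA1 groups did not (log2 fold change -0.07, SE 0.07, adjusted p = 0.668, and -0.12, SE 0.07, adjusted p = 0.404, in the edgeR fits).

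Grm2 was the member that rose in both tissues. It encodes a group II metabotropic receptor, which lowers cyclic AMP and in forebrain neurons sits largely on axons (ENSMUSG00000023192, chr9:106644537-106656109, minus strand). It had 76.9, 74.3 and 73.3 CPM in KO neocortex, against 63.6, 62.0 and 60.3 CPM in control neocortex. In the CA1 it had 104 and 101 CPM in KO, against 80.7, 68.2 and 76.8 CPM in controls. Every KO library lay above every control of its tissue. The fitted rise of KO over control was 20.7% in the neocortex (log2 fold change 0.27, SE 0.055, edgeR adjusted p = 0.0241) and 36.1% in the CA1 (0.44, SE 0.075, edgeR adjusted p = 0.0051).

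The CA1 rise of Grm2 passed without any 1 of the 5 libraries (log2 fold change 0.38 to 0.50). The neocortex rise passed without D5134 (adjusted p = 0.0313) and not without any other single library (adjusted p 0.0566 to 0.118, edgeR), and it did not pass with a term for the spike-in set (adjusted p = 0.0812). The KO effects of the tissues did not pass the test of their difference (0.17, SE 0.093, edgeR adjusted p = 0.597). Grm2 shares 470 exon bases with Gm28111 on the other strand.

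The other metabotropic receptors did not pass. Grm3, the group II partner of Grm2, was at 0.16 in the neocortex and -0.11 in the CA1 (edgeR adjusted p = 0.289 and 0.638). Grm5, which couples to phospholipase C, was at 0.17 and -0.16 (adjusted p = 0.733 and 0.579), with 1 control low in the neocortex (D5134, 42.0 CPM, against 61.0 and 71.4 CPM) and 1 control high in the CA1 (D5135, 172 CPM, against 131 and 128 CPM). Of the group III receptors, Grm4 and Grm7 lay above 0 in both tissues, and Grm8 was at -0.13 and -0.39 (adjusted p = 0.481 and 0.161).

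Among the auxiliary subunits of AMPA receptors, Shisa7 and Shisa6 rose in KO neocortex and none of the 8 passed in the CA1 (edgeR; 2 at an unadjusted p under 0.05; DESeq2 called Cacng3 as lower). Shisa7 (ENSMUSG00000053550, chr7:4825552-4844696, minus strand) encodes a membrane protein that binds AMPA receptors and has also been described with GABA-A receptors. It had 225, 244 and 250 CPM in KO neocortex, against 190, 190 and 188 CPM in control neocortex. In the CA1 it had 269 and 278 CPM in KO, against 284, 280 and 286 CPM in controls. The neocortex groups stood well apart, with KO 26.4% higher (log2 fold change 0.34, SE 0.052, edgeR adjusted p = 0.00784), and the CA1 groups lay close together with KO just below control (-0.05, SE 0.053, adjusted p = 0.695).

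The neocortex rise of Shisa7 passed without any 1 library except D5133 (adjusted p = 0.0786 without it) and with a term for the spike-in set (adjusted p = 0.0239). Its KO effect differed between the tissues (CA1 less neocortex -0.39, SE 0.072, edgeR adjusted p = 0.0499), the 1 member of the 45 to pass that test, where 0.0935% of 19256 genes passed. With animal as a block the difference was -0.37 and did not pass (adjusted p = 0.0531), and it passed without the neocortex library of D5134 (adjusted p = 0.0453) but not without any other single library (adjusted p 0.0506 to 0.116).

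Shisa6 (ENSMUSG00000053930, chr11:66211725-66525964, minus strand), which keeps AMPA receptors from desensitising, is the member with the miR-128 and miR-218 matches printed above. It had 20.5, 21.1 and 21.6 CPM in KO neocortex, against 14.6, 18.4 and 15.5 CPM in control neocortex. In the CA1 it had 180 and 192 CPM in KO, against 185, 230 and 197 CPM in controls. The neocortex groups did not overlap, with KO 30.3% higher (log2 fold change 0.38, SE 0.092, edgeR adjusted p = 0.0478), while the CA1 groups overlapped (-0.13, SE 0.082, adjusted p = 0.464), at -0.20 without D5134 and -0.04 without D5135. The neocortex call held without D5134 (adjusted p = 0.0134) and not without any other single library (0.0952 to 0.236) or with a term for the spike-in set (0.0689). The difference between the tissues was -0.51 (SE 0.125, edgeR adjusted p = 0.169).

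The 6 other auxiliary subunits of AMPA receptors gave a mixed picture. Cacng3, a TARP (a protein that brings AMPA receptors to the synapse), had 65.5, 57.3 and 62.9 CPM in KO neocortex, against 68.8, 70.4 and 75.3 CPM in control neocortex, and 32.3 and 32.4 CPM in KO CA1, against 40.6, 38.1 and 41.1 CPM in control CA1. KO lay below control in every library, but neither tissue passed (log2 fold change -0.21, adjusted p = 0.116, and -0.30, adjusted p = 0.0513, edgeR). Cnih2, a cornichon that slows channel closing, was below its controls in every library too (-0.14, adjusted p = 0.19, and -0.20, adjusted p = 0.13). Cacng2, Cacng8, Cnih3 and Shisa9 were between -0.01 and 0.11 in the neocortex and between -0.16 and 0.01 in the CA1.

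**Figure D4:**
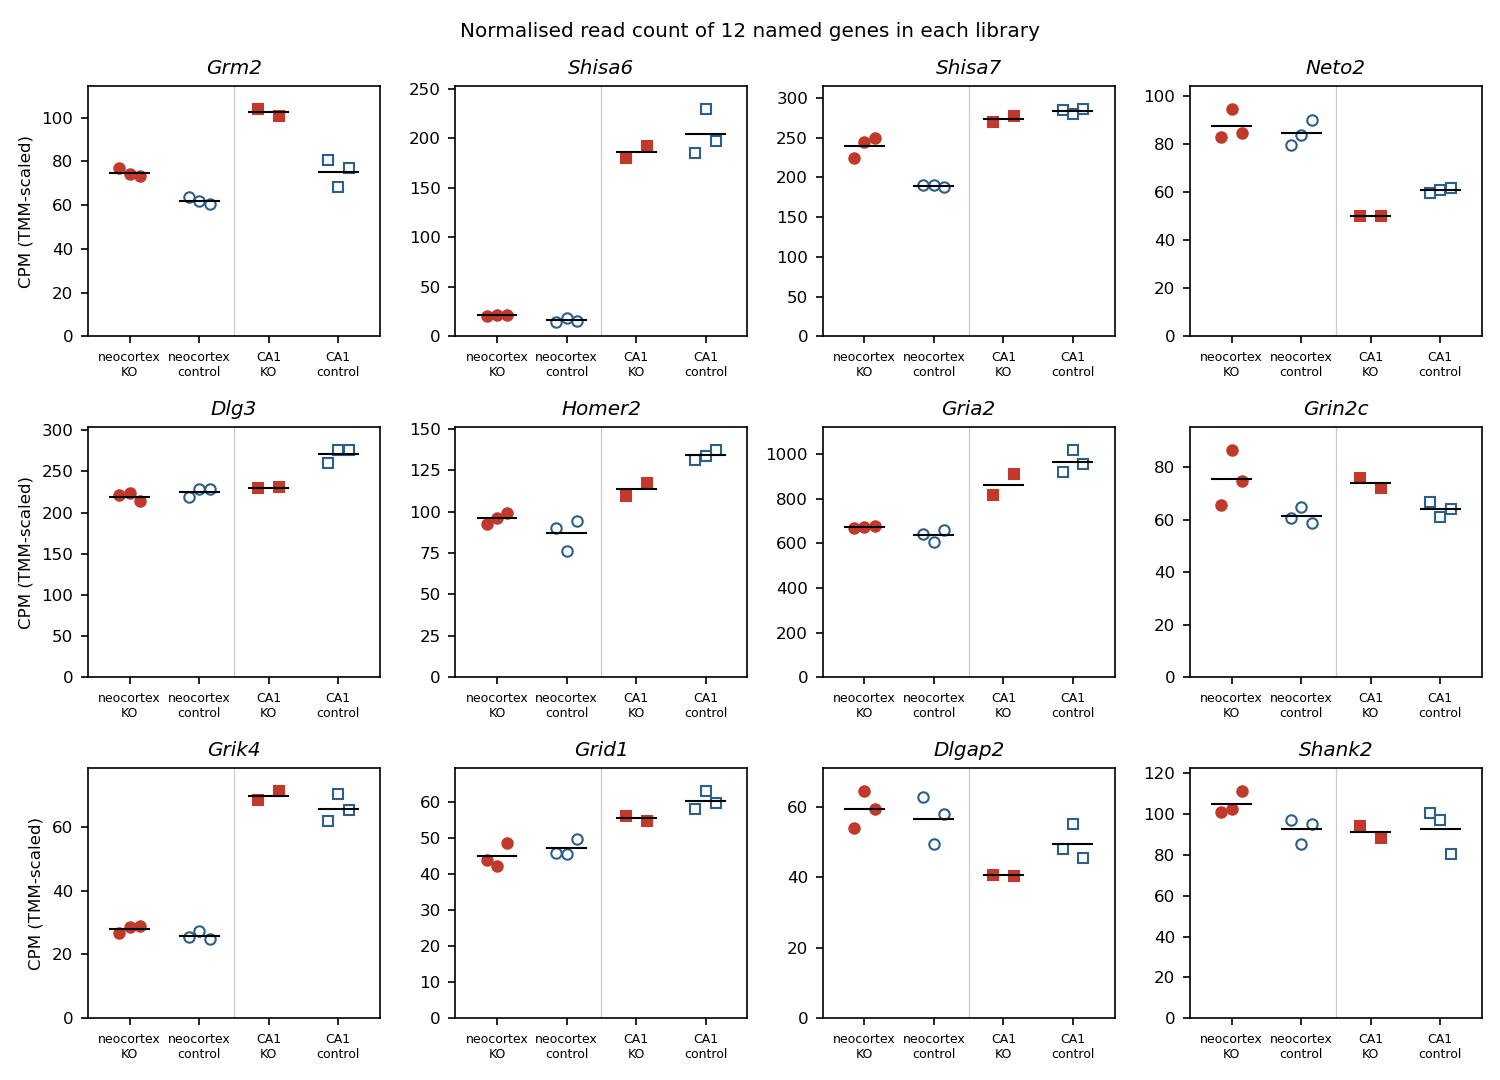
CPM (TMM-scaled, linear axis from 0) of the 12 genes named with library values, 1 point per library, KO left of control within each tissue, with the group mean as a line. Grm2 lies higher in KO in both tissues, Shisa6 and Shisa7 lie higher in KO in the neocortex, and Neto2, Dlg3 and Homer2 lie lower in KO in the CA1.

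Neto2, an auxiliary subunit that slows kainate receptor currents (ENSMUSG00000036902, chr8:85636588-85690973, minus strand, with the miR-30 and miR-92 matches above), fell in the CA1. It had 50.1 and 50.0 CPM in KO CA1, against 59.7, 60.9 and 61.8 CPM in control CA1. In the neocortex it had 82.8, 94.5 and 84.4 CPM in KO, against 79.4, 83.6 and 89.8 CPM in controls. The CA1 groups were each tight and apart, with KO lower by 0.28 on the log2 scale (log2 fold change -0.28, SE 0.068, edgeR adjusted p = 0.0331), and the neocortex groups overlapped (0.05, SE 0.067, adjusted p = 0.77). Its partner Neto1, which also binds NMDA receptors, was at 0.18 in the neocortex (adjusted p = 0.14) and 0.06 in the CA1 (adjusted p = 0.788).

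In KO CA1 all 13 scaffolds had a log2 fold change below 0, where 50.1% of all genes were, with a median of -0.17, and 2 passed the test (Dlg3 and Homer2). Without D5134, 11 of the 13 were below 0, with a median of -0.16. In the neocortex 10 of 13 were above 0, where 50.6% of all genes were, with a median of 0.12. None passed there (edgeR; 2 at an unadjusted p under 0.05; 0 by DESeq2). Without D5134, 8 of the 13 were above 0 in the neocortex (50.4% of all genes), with a median of 0.06. All 3 Dlgap genes were then below 0. KO lay below all controls in the CA1 for 7 of the 13, against 16.3% of all genes, namely all 4 Dlg genes, Dlgap1, Dlgap2 and Homer2.

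Dlg3 is an X-linked scaffold that carries NMDA receptors to the synapse (ENSMUSG00000000881, chrX:100767722-100818408, plus strand). It had 229 and 230 CPM in KO CA1, against 261, 275 and 276 CPM in control CA1. In the neocortex it had 221, 224 and 214 CPM in KO, against 218, 229 and 228 CPM in controls. The CA1 groups did not overlap (log2 fold change -0.24, SE 0.056, edgeR adjusted p = 0.0308), and the neocortex groups did (-0.04, SE 0.048, adjusted p = 0.752). One CA1 control, D5138, is female, and without it Dlg3 was at -0.22 (adjusted p = 0.16).

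Homer2, a Homer scaffold that links group I metabotropic receptors to Shank (ENSMUSG00000025813, chr7:81600481-81706925, minus strand), holds the let-7, miR-19 and miR-26 matches printed above. It had 110 and 117 CPM in KO CA1, against 131, 134 and 137 CPM in control CA1. In the neocortex it had 92.7, 96.3 and 99.2 CPM in KO, against 90.3, 76.4 and 94.5 CPM in controls. The CA1 groups did not overlap, with KO lower (log2 fold change -0.24, SE 0.063, edgeR adjusted p = 0.0482), and the neocortex groups overlapped (0.14, SE 0.074, adjusted p = 0.349), with a neocortex value of 0.06 without D5134.

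These CA1 falls sat near the threshold. Neto2 and Homer2 did not pass without any single CA1 library (adjusted p 0.0595 to 0.168, and 0.0644 to 0.235, edgeR), and Dlg3 passed without D5134 (adjusted p = 0.0309) and not without the other single libraries (0.0909 to 0.16). Their fold changes stayed below 0 throughout. In the unstranded CA1 libraries, Homer2 shares 525 exon bases with Gm44570 on the other strand and Neto2 shares 20 with Mir8109.

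The remaining scaffolds did not pass. Dlg1 was at 0.13 in the neocortex and -0.21 in the CA1 (edgeR adjusted p = 0.234 and 0.102), Dlg2 at 0.18 and -0.18 (0.438 and 0.142), and Dlg4, the main Dlg scaffold of mature spines, at -0.09 and -0.11 (0.417 and 0.328). Dlgap2, which joins Dlg proteins to Shank, had 40.7 and 40.5 CPM in KO CA1, against 48.0, 55.1 and 45.3 CPM in control CA1, with no overlap (-0.29, SE 0.089, adjusted p = 0.094). In the neocortex it had 54.1, 64.5 and 59.3 CPM in KO, against 62.7, 49.4 and 57.9 CPM in controls (0.06, SE 0.091, adjusted p = 0.782). Dlgap1 was at -0.17 in the CA1, and Dlgap3 was at -0.09 in the neocortex and -0.08 in the CA1.

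The 3 Shank genes, which form the deep layer of the density, had neocortex log2 fold changes of 0.12 to 0.18 and CA1 log2 fold changes of -0.08 to -0.02. Shank2 had 101, 103 and 112 CPM in KO neocortex, against 97.0, 85.4 and 95.4 CPM in control neocortex. In the CA1, Shank2 had 94.4 and 88.1 CPM in KO, against 101, 97.0 and 80.3 CPM in controls. The Shank2 groups were apart in the neocortex (0.18, SE 0.064, edgeR adjusted p = 0.156) and overlapped in the CA1 (-0.02, SE 0.089, adjusted p = 0.943). Homer1, whose short form follows activity, spread over 273 to 419 CPM in KO neocortex and 250 to 453 CPM in control neocortex, so its SE of 0.305 was the largest of the set there. Homer3 was at 0.25 in the neocortex and -0.04 in the CA1 (-0.16 without D5134), on 4.97 to 6.18 CPM in KO neocortex and 4.43 to 5.08 CPM in control neocortex.

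Direction was compared between the tissues, which share no library but share 4 animals. KO was higher in the neocortex and lower in the CA1 for 24 of the 45 genes (53.3%, against 19.2% of 16544 genes tested in both), higher in both for 10, lower in both for 10, and the reverse for Grik5. Without both libraries of D5134 the first count was 16 (35.6%, against 18.7% of 16631 genes). The difference of the KO effects, CA1 less neocortex, was below 0 for 40 of 45 genes (88.9%, against 48.8% of all genes tested), with a median of -0.19, against 0.007 over all genes. It was at an unadjusted p under 0.05 for 13 genes (28.9%, against 9.51%), and 1, Shisa7, passed the adjustment. Leaving out any 1 library put the median between -0.21 and -0.14. With animal as a block 3 members passed, Homer1, Grin2a and Dlg2, each with a difference below 0 (the count over all genes is given in the last section). That fit draws the difference only from the 4 animals with both tissues, of which D5134 is 1. Without the block none of these 3 passed (edgeR adjusted p = 0.912, 0.283 and 0.422).

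Levels were set side by side per kilobase of exon, counting each exon base of any transcript of the gene. The orders given here, at the high and the low end, are for that length. The longest single transcript is much shorter for Grin1 (4276 against 9700 bases) and Dlg4 (6326 against 13251), but not for Cnih2 (1343 against 1369). Dividing by it would put Grin1 and Dlg4 above Cnih2 in the neocortex, so the order there rests on the length used. In the neocortex Cnih2 stood highest, at 96.0 CPM per kb in KO and 106 in control, followed by Dlgap3 (84.2 and 89.8), Grin1 (59.8 and 61.8) and Dlg4 (52.7 and 56.0). In the CA1 Cnih2 again stood highest, at 211 CPM per kb in KO and 244 in control, followed by Gria1 (169 and 185) and Grin1 (58.5 and 64.1), with Dlgap3 (56.0 and 59.2) and Gria2 (55.5 and 62.0) next and in opposite order in the genotypes. The tissues differed most for Shisa6, at 24.99 and 2.83 CPM per kb in KO CA1 and KO neocortex and 27.4 and 2.17 in the controls, and for Homer3, at 13.1 and 1.63 in KO and 13.5 and 1.37 in controls. Homer3 shares 874 exon bases with Ddx49 on the other strand, counted at 42.8 to 54.9 CPM in the unstranded CA1 libraries, where Homer3 averaged 45.2 CPM in KO and 46.4 CPM in control, so the CA1 reads of this pair cannot be told apart. Kit and run changed with tissue, so these levels were not tested between them. At the low end were Grin2a in the neocortex (0.540 in KO and 0.453 in control, a lower limit as above) and Grm8 in the CA1 (0.906 in KO and 1.19 in control).

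**Figure D5:**
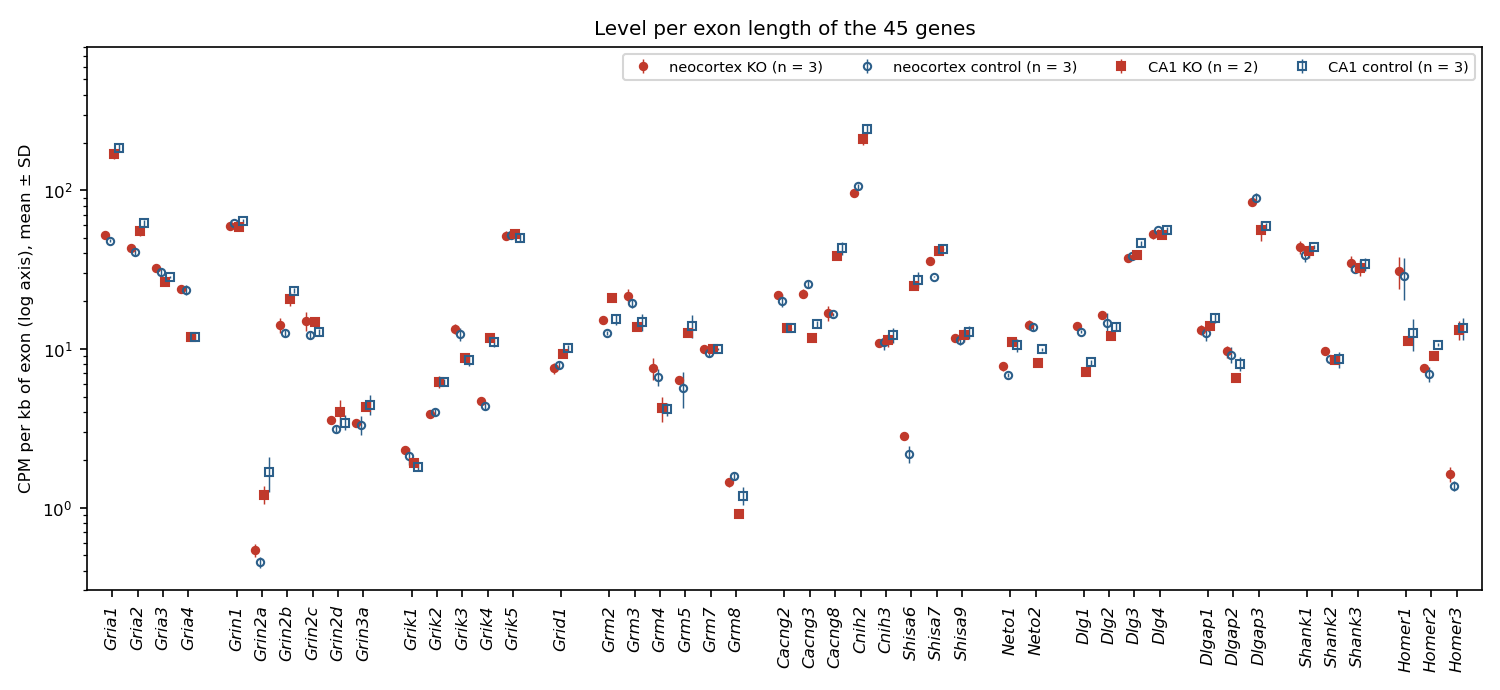
Mean CPM per kilobase of exon (log axis) with SD of the 45 genes in KO and control of each tissue. Levels span more than 100-fold within a tissue, KO and control lie close for nearly every gene, and Shisa6 and Homer3 are the genes whose CA1 levels stand farthest above their neocortex levels, with Homer3 overlapped by Ddx49 in the CA1.

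Other genes of the excitatory synapse were read from the same fits in 4 lists. Of 20 enzymes and signalling proteins of the postsynaptic density, 18 had a log2 fold change below 0 in KO CA1 (median -0.14; 50.1% of all genes were below 0) and 13 in KO neocortex (median -0.07, 49.4% of all genes). In the CA1 Ppp3ca, the catalytic subunit of calcineurin, fell (-0.26, SE 0.056, edgeR adjusted p = 0.022), and Nos1, the neuronal nitric oxide synthase, rose (0.51, adjusted p = 0.00311). The actin-binding Ppp1r9a did not pass with edgeR in the CA1 (-0.28, adjusted p = 0.0555). DESeq2 called Ppp1r9a and Kalrn as lower there.

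Of 19 genes for trafficking and assembly of AMPA receptors, 0 passed in the neocortex (6 at an unadjusted p under 0.05; 0 by DESeq2). In the CA1 the olfactomedins split, with Olfm2 higher (0.48, adjusted p = 0.00882) and Olfm3 lower (-0.54, adjusted p = 0.00728, edgeR). Of 20 synaptic adhesion genes, 0 passed in the neocortex (6 at an unadjusted p under 0.05; DESeq2 called Nrxn3 as higher), and in the CA1 Lrrtm2, a postsynaptic partner of neurexins, fell (-0.34, adjusted p = 0.0157). Of 12 genes of glutamate supply and uptake, 0 passed in the neocortex (3 at an unadjusted p under 0.05; DESeq2 called Slc38a1 as higher), and in the CA1 the vesicular transporter Slc17a6 fell (-0.83, adjusted p = 0.00714) and the glutamine transporter Slc38a2 rose (0.27, adjusted p = 0.0458).

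Marker genes of cell types moved beside the set, and their part in the results above was not tested. No marker of the 9 lists was at 0 in any library. Excitatory neuron markers summed to 4117 to 4300 CPM in KO neocortex, against 4706 to 4988 CPM in controls, and 4070 to 4377 CPM in KO CA1, against 4713 to 5085 CPM in controls, and 3 of 10 fell in each tissue. Oligodendrocyte markers summed to 3093 to 3118 CPM in KO CA1, against 3797 to 4594 CPM in controls (9 of 10 fell), and to 2944 to 3491 CPM in KO neocortex, against 3264 to 3390 CPM in controls (0 passed with edgeR or DESeq2, 2 at an unadjusted p under 0.05). Microglia markers summed to 402 to 453 CPM in KO CA1, against 284 to 299 CPM in controls (6 of 10 rose). In the neocortex they summed to 437 to 478 CPM in KO, against 408 to 437 CPM in controls. Of the 10 in the neocortex, 4 rose with edgeR and 4 had a log2 fold change below 0, of which DESeq2 called 1 as lower. Astrocyte markers summed to 2972 to 3156 CPM in KO CA1, against 2412 to 2507 CPM in controls (2 of 10 rose), and to 2502 to 2770 CPM in KO neocortex, against 2354 to 2466 CPM in controls.

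The other marker lists held few calls. Striatal markers summed to 197 to 212 CPM in KO neocortex, against 218 to 274 CPM in controls (3 of 10 fell), and to 113 CPM in both KO CA1 libraries, against 127 to 141 CPM in controls (1 fell). Inhibitory neuron markers summed to 1503 to 1571 CPM in KO neocortex, against 1466 to 1535 CPM in controls, and to 1050 to 1107 CPM in KO CA1, against 1080 to 1139 CPM in controls (1 fell). Oligodendrocyte precursor markers summed to 259 to 296 CPM in KO neocortex, against 299 to 323 CPM in controls, and to 293 to 314 CPM in KO CA1, against 352 to 364 CPM in controls (1 fell). Markers of the dentate gyrus and CA3, present if a CA1 dissection takes in neighbours, summed to 411 to 448 CPM in KO CA1, against 394 to 458 CPM in controls, and to 137 to 147 CPM in KO neocortex, against 154 to 159 CPM in controls (1 fell). Endothelial markers summed to 205 to 207 CPM in KO CA1, against 177 to 210 CPM in controls (1 rose), and to 234 to 239 CPM in KO neocortex, against 236 to 278 CPM in controls.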

How the data were processed

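Polyadenylated RNA of 11 libraries from 7 mice was measured. The values are deposited gene counts (whole reads, not normalized). Per the labels' protocols, neocortex libraries were stranded and carried ERCC RNAs, and CA1 libraries were unstranded. The submitters' processing notes name GSNAP, bedtools, SAMtools and FastQC and the build GRCm38; roles, versions, annotation and strand setting are not given in the sources used here.

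Each tissue was fitted alone with edgeR 4.0.16 (R 4.3.3; TMM, filterByExpr, robust quasi-likelihood F-test, two-sided), for KO against control, and the difference between tissues was an interaction over all libraries. P-values were adjusted by Benjamini-Hochberg across every gene tested, with a threshold of 0.05. The script was tested on simulated data. Alternatives were DESeq2 1.42.0, RLE size factors, no filter, each library left out, a spike-in set term, ERCC scaling, animal as a block and other gene lengths. P-values measure the spread between animals of 1 or both sexes, and depth sets counting error only.

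The members, lists and alternatives were chosen with earlier results of these data known. Genes with library values are those called, plus the smallest p in each further class, up to 12, and Cacng3, which was added after its values were seen; up to 4 genes per other list could be named. A gene of another list that this rule takes is not reported here. Names, exons and 3′ UTRs came from GENCODE M21, and 37607 of 39017 identifiers (96.4%) had a name.

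The labels give 4 animals in both tissues. Deviations from group means correlated across genes at 0.14, 0.143, 0.18 and 0.216 between tissues of 1 animal, against -0.248 to 0.065 between animals. Centring on the group mean ties these values together and pushes those between animals below 0. With 2 KO libraries in the CA1, the deviations of 1 mirror those of the other. The correlations therefore cannot by themselves show the pairing, which is taken from the labels.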

Additional observations from a re-analysis of the deposited data

Results flagged for a closer look

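Shisa7 had different KO effects in the tissues by a test of the difference itself, which left out the pairing by animal. With animal as a block the difference did not pass. In the test without the block, CA1 less neocortex was -0.39 on the log2 scale (SE 0.072, edgeR adjusted p = 0.0499). The KO effect was 0.34 in the neocortex, where 3 of 3 KO libraries lay above the controls, and -0.05 in the CA1, where 2 of 2 KO libraries lay below them. Over the alternatives the adjusted p ran from 0.000123 to 0.116, and kit changed with tissue.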

How the results depend on the processing

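No call of a named member changed sign, but some uncalled values did: Neto2 in the neocortex (-0.0098 without D5132, up to 0.098 without another library), Dlgap2 in the neocortex (-0.024 without D5134, up to 0.144), Shank2 in the CA1 (-0.115 to 0.043 over libraries left out, above 0 without D5133, D5134 or D5135), the tissue difference of Grin2c (0.030 with the block), and under ERCC scaling Dlg3 (0.996) and Grid1 (1.02) in the neocortex, both under that setting's median of all genes. Genes called in the neocortex (460) numbered 900 with DESeq2, 770 without a filter and 191 with a term for the spike-in set (1 member, Shisa7). ERCC scaling moved the median of all genes to 1.06 and that of the members to 1.19, and called 4 genes, 4 higher and 0 lower, and 0 members (0 at an unadjusted p under 0.05 with edgeR). Without a filter the CA1 had 1467 genes (710) and 9 members (4). The difference between tissues was called for 156 genes and 4 members with DESeq2, 237 and 6 without a filter, and 114 (36 higher, 78 lower) and 3 with animal as a replicate block, against 18 and 1. Counting 7mer matches too put 36 of the 45 members in place of 20, and 71.23% of all genes in place of 41.8%. Leaving out 1 library gave 0 to 3 members and 19 to 430 genes in the neocortex, 1 to 2 and 232 to 732 in the CA1, and 0 to 2 and 1 to 31 for the difference. The medians ran from 0.05 to 0.12, from -0.12 to -0.06 and from -0.21 to -0.14. Apart from Shisa7, the block changed no call among the 12 genes given by library. Depth limits genes of low counts, such as Grm8, Grik1 and, in the neocortex, Grin2a and Homer3, and few animals limit all calls.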
